A study of Mus musculus with 6 samples.

Results

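The genes described here encode 7 subunits of the GABA-A receptor, namely alpha 2, 3, 4 and 5 (Gabra2, Gabra3, Gabra4, Gabra5), beta 1 and 2 (Gabrb1, Gabrb2) and delta (Gabrd). They were read by every probe set annotated to a single gene among them, which gave 21 probe sets for 7 of the 18193 genes with such a probe set. Heterozygous p300-deficient mice (p300+/-) were compared with wild-type littermates. The deficient gene, Ep300, encodes a transcriptional coactivator that acetylates histones and other proteins, and the labels describe the allele no further. All were females on a C57BL/6 background, 3 months old. Each of the 6 Affymetrix Mouse Genome 430 2.0 arrays carried pooled hippocampal RNA of 4 animals, with 3 pools of each genotype (12 animals per genotype), so that differences between single animals were averaged within a pool. The pools were of whole dissected hippocampus, in which fewer cells of a type and less RNA per cell cannot be told apart.

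The GABA-A receptor is a chloride channel of several subunits that opens when GABA binds, and it carries most fast inhibition in the hippocampus. Alpha and beta subunits form the GABA binding sites, and the alpha subunit largely sets where a receptor sits and how it responds to drugs such as benzodiazepines. Receptors with the delta or the alpha 5 subunit lie mostly outside synapses, where they sense ambient GABA and hold a steady inhibitory current.

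The deposited values were log2 intensities relative to the median of each probe set over the 6 arrays. The base of 2 was inferred from the values. They hold differences between arrays and no absolute level, so the subunits could not be ordered by abundance. The numerical grid of the values placed each probe set in a coarse class of log2 intensity, an assignment that can err for single probe sets. By this measure 16 of the 21 probe sets were in the class from 8 to 16, 2 in that from 4 to 8 and 3 in that from 2 to 4. Over all 45037 probe sets tested, 13164 were in the class from 8 to 16. The 3 dim ones were 1420299_at and 1449807_x_at of Gabra2 and 1457763_at of Gabrd.

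Some facts of the arrays bear on what follows. Ep300 was at -0.26, -0.22 and -0.50 in p300+/- pools 1 to 3 and at 0.22, 0.38 and 0.40 in wild-type pools 1 to 3, with no overlap and a log2 fold change of -0.66 ± 0.13 (SE). Its probe set ranked 3 of 45037 by unadjusted p and was not called at an adjusted p under 0.05 (limma, unadjusted p = 0.00103, adjusted p = 0.9999). The place of this probe set relative to the altered stretch of the gene was not analysed here. p300+/- 3 and wild-type 2 stood apart from the other arrays. The interquartile range of their values was 0.27 and 0.30 on the log2 scale, against 0.15 to 0.20 on the other 4. Gene means are given with and without both. Choroid plexus markers (8 of 9 listed genes measured) averaged -2.54 in wild-type 2 and -0.13 to 0.32 on the other arrays. A marker gene was counted in the top class if any of its probe sets was there, which favours genes with more probe sets. Markers of CA1 pyramidal cells reached the top class in 6 of 6 measured genes, those of dentate granule cells in 5 of 10 and those of CA3 and CA2 in 4 of 7. So did thalamic markers in 6 of 10, choroid plexus markers in 4 of 8 and cortical and striatal markers in 1 of 8. Of the cerebellar markers 1 of 6 did, and both probe sets of Gabra6, the subunit of cerebellar granule cells, were in the lowest class.

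No GABA-A subunit differed between genotypes past the threshold. Of the 21 probe sets 0 were called at an adjusted p under 0.05, as were 0 of all 45037 tested (0%; limma, smallest adjusted p = 0.9999). At an unadjusted p under 0.05 there were 2 subunit probe sets, both lower in p300+/- pools, where 1.22% of all probe sets passed in either direction, 0.451% as lower and 0.77% as higher. They belonged to Gabra4 (1429330_at) and Gabrb1 (1443205_at) and were 9.52% of the subunit probe sets. This count was 0 without wild-type 3 (1.45% of all probe sets). It was 1 without p300+/- 1 (Gabra4 1429330_at, against 2.43% of all) and without p300+/- 2 (Gabrb1 1443205_at, against 1.55%). Without wild-type 1 it was also 1, but this was Gabra2 1455444_at (against 1.05%). Without wild-type 2 the same 2 probe sets passed (against 2.56%). Without p300+/- 3 there were 3 (against 1.43%). They were Gabra4 1429330_at, lower, and Gabra3 1421263_at and Gabrb2 1450319_at, both higher. A negative log2 fold change was found for 15 of the 21 probe sets (71.4%), against 48.3% of all probe sets. The median log2 fold change was -0.072 over the subunit probe sets and 0.0057 over all probe sets. The members were chosen with earlier results of these data known, so these shares and those below describe them and are not a test. Without p300+/- 3 and wild-type 2, 13 of 21 were negative (61.9%, against 45.9% of all), with a median of -0.020. With single arrays left out the median ran from -0.16 without p300+/- 2 to -0.024 without p300+/- 3. The 95% intervals of single subunit probe sets reached from 0.24 to 1.26 to either side on the log2 scale. With 3 pools in each group the smallest two-sided p that an exact permutation can reach is 0.1.

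**Figure D1:**
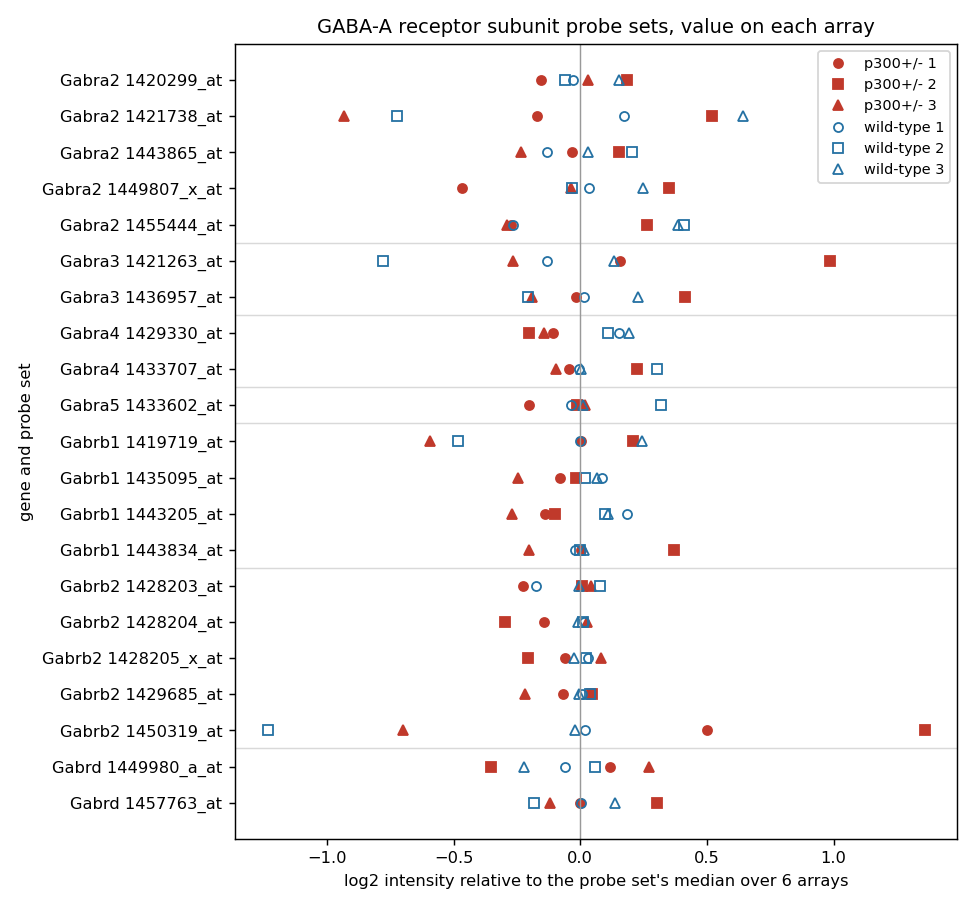
Each row is a probe set of a GABA-A subunit gene and each symbol the log2 intensity on an array, centred on the median of the row; filled red symbols are p300+/- pools and open blue symbols wild-type pools, with the replicate number given by the shape. In 3 rows (Gabra4 1429330_at, Gabrb1 1435095_at and Gabrb1 1443205_at) all red symbols lie left of all blue ones, and the widest row, Gabrb2 1450319_at, spans 2.59.

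**Figure D2:**
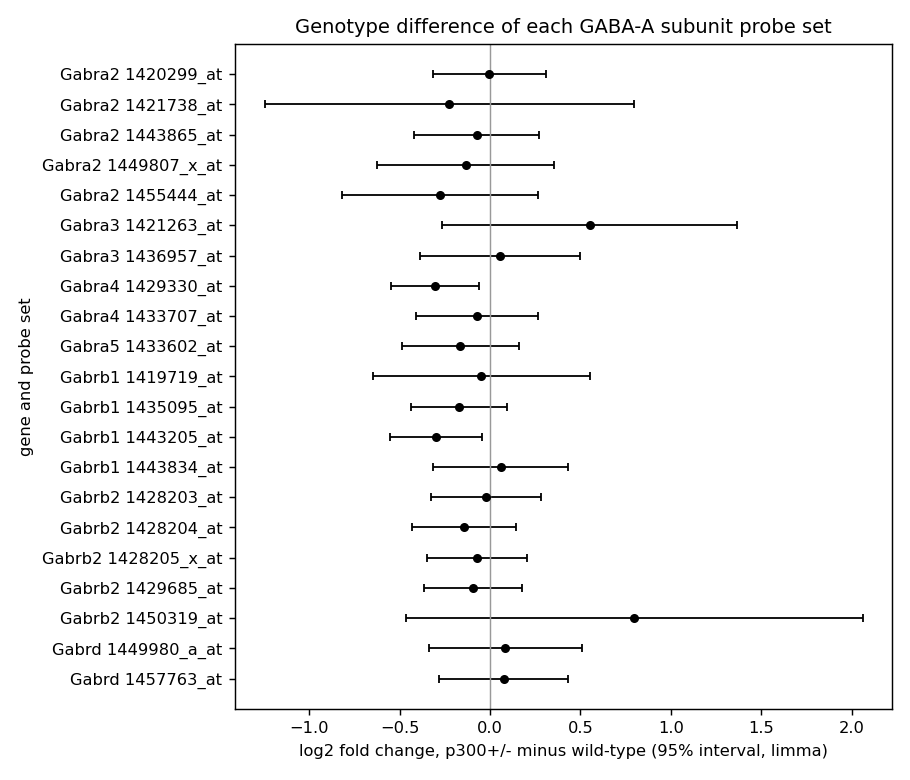
Points are log2 fold changes of p300+/- minus wild-type pools (3 arrays each) for the 21 subunit probe sets and bars are 95% intervals from limma, not adjusted for the number of probe sets. The intervals of Gabra4 1429330_at (-0.55 to -0.059) and Gabrb1 1443205_at (-0.56 to -0.043) lie below 0, and those of Gabrb2 1450319_at and Gabra2 1421738_at are the widest.

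Gabra4 encodes alpha 4, which pairs with delta in the extrasynaptic receptors of dentate granule cells. Its probe set 1429330_at was at -0.11, -0.20 and -0.14 in p300+/- pools 1 to 3 and at 0.15, 0.11 and 0.19 in wild-type pools 1 to 3. Every p300+/- pool was lower than every wild-type pool, and the groups were separated by a gap of 0.22. The group means were -0.15 ± 0.047 and 0.15 ± 0.042 (SD, n = 3), a log2 fold change of -0.30 ± 0.10 (SE), which is a ratio of 0.81 to wild-type (95% interval 0.684 to 0.960). It ranked 157 of 45037 by unadjusted p and did not pass (limma, unadjusted p = 0.0215, adjusted p = 0.9999). The value was as large without p300+/- 3 and wild-type 2, at -0.33, and ran from -0.32 to -0.28 with single arrays left out.

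The other Gabra4 probe set did not share this separation. 1433707_at was at -0.043, 0.22 and -0.095 in p300+/- pools and at -0.0038, 0.30 and 0.0038 in wild-type pools, with p300+/- 2 and wild-type 2 high and the groups overlapping. Its log2 fold change was -0.072 ± 0.14 (SE) and turned to 0.091 without p300+/- 3 and wild-type 2. Both probe sets were in the class from 8 to 16, and with all 6 arrays both had negative log2 fold changes. Which part of the transcript each reads was not analysed here. Averaged over both, Gabra4 was at -0.061 ± 0.066 in p300+/- and 0.13 ± 0.070 in wild-type pools (SD, n = 3), a difference of -0.19 ± 0.056 (SE; exact permutation p = 0.1, the smallest this design allows). The gene means of the pools did not overlap, and the difference was -0.12 without p300+/- 3 and wild-type 2. The share of all genes whose means do not overlap was not computed.

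Gabrb1 encodes beta 1, one of the beta subunits needed for receptor assembly and transport to the membrane. Its 4 probe sets came from 4 different transcript records. 1443205_at was at -0.14, -0.098 and -0.27 in p300+/- pools and at 0.18, 0.098 and 0.11 in wild-type pools. The groups did not overlap, with the lowest value in p300+/- 3 and a gap of 0.20. Its log2 fold change was -0.30 ± 0.11 (SE), a level of 0.813 times wild-type with a 95% interval of 0.681 to 0.971, and it did not pass (limma, unadjusted p = 0.0276, adjusted p = 0.9999). Without p300+/- 3 and wild-type 2 it was at -0.27 (limma, unadjusted p = 0.0688). A second Gabrb1 probe set, 1435095_at, was also lower in every p300+/- pool, at -0.079, -0.018 and -0.25 against 0.086, 0.018 and 0.065. The gap between its groups was 0.036, and its log2 fold change was -0.17 ± 0.11 (SE). The other two gave values near 0. For 1443834_at they were 0.0025, 0.37 and -0.20 in p300+/- pools and -0.019, -0.0025 and 0.013 in wild-type pools, a spread that lay almost wholly in p300+/- 2 and 3. 1419719_at, at -0.049 ± 0.26, was lowest in p300+/- 3 (-0.59) and wild-type 2 (-0.48). Over its 4 probe sets Gabrb1 differed by -0.11 ± 0.14 (SE) and its groups overlapped. The difference was 0.0049 without p300+/- 3 and -0.054 without p300+/- 3 and wild-type 2.

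These 3 probe sets of Gabra4 and Gabrb1 were the only ones of the 21 whose genotypes did not overlap. All p300+/- pools were lower in 3 of 21 (14.3%), against 2.20% of all probe sets, and higher in 0 of 21, against 3.19% of all.

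Gabra4 and Gabrb1 are neighbours on chromosome 5 in the RefSeq annotation of GRCm38.p6. They lie on opposite strands with their starts facing each other, the Gabra4 start being 387 bases beyond the Gabrb1 start, so that the first bases of the genes overlap. Gabra2 lies on the same chromosome. The promoter windows of Gabra4 and Gabrb1, from 250 bases before to 50 bases after the start, are shown because both genes had the separated probe sets. They do not overlap each other. Gabra4 is at chr5:71658259-71658558 on the minus strand and Gabrb1 at chr5:71657671-71657970 on the plus strand, with capitals marking the 50 bases from the start onwards.
Gabra4: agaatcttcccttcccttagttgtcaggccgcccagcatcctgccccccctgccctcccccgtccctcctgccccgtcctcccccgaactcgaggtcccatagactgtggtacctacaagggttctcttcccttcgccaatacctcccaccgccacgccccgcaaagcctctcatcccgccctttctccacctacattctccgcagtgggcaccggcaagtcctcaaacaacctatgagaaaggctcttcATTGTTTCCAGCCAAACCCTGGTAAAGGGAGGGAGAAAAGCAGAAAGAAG
Gabrb1: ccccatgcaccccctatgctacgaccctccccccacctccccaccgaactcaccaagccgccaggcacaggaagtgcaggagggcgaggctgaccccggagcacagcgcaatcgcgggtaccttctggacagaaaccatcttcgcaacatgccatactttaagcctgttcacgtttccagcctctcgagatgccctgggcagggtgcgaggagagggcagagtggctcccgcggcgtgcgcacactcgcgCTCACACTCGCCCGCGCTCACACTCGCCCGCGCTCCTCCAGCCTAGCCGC
The Gabra4 window held 58.7% G and C with 12 CpG pairs and this Gabrb1 window 66.0% with 25, where the median over all promoter windows was 52.7% and 7. Gabrb1 has another annotated start, away from Gabra4, whose window (chr5:71699682-71699981) held 50.3% with 9. Windows of the members without separated probe sets ran from 39.3% with 0 in Gabra3 to 70.0% with 25 in Gabra2.

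Windows were found for 6 of the 7 genes, 10 windows in all because several genes have more than 1 start. They were searched on both strands for the binding site of CREB, a transcription factor that recruits p300. Its full site TGACGTCA was in 0 of 10 windows and in 1.79% of all 32851. Its core TGACG, which the full site contains, was in 1 of 10 and in 20.8% of all. The site GCGTGGGCG of EGR factors was in 0 of 10 and in 0.612% of all. The core lay in a Gabrb2 window (chr11:42420190-42420489, plus strand), on the opposite strand, where it is spelled CGTCA and shown in capitals.
Gabrb2: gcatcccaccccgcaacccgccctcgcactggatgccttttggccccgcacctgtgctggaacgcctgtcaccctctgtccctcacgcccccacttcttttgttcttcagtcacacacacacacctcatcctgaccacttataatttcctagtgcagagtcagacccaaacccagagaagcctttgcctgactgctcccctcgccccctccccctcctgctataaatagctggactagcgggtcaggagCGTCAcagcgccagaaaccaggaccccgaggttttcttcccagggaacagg
A match of letters describes the window only.

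**Figure D3:**
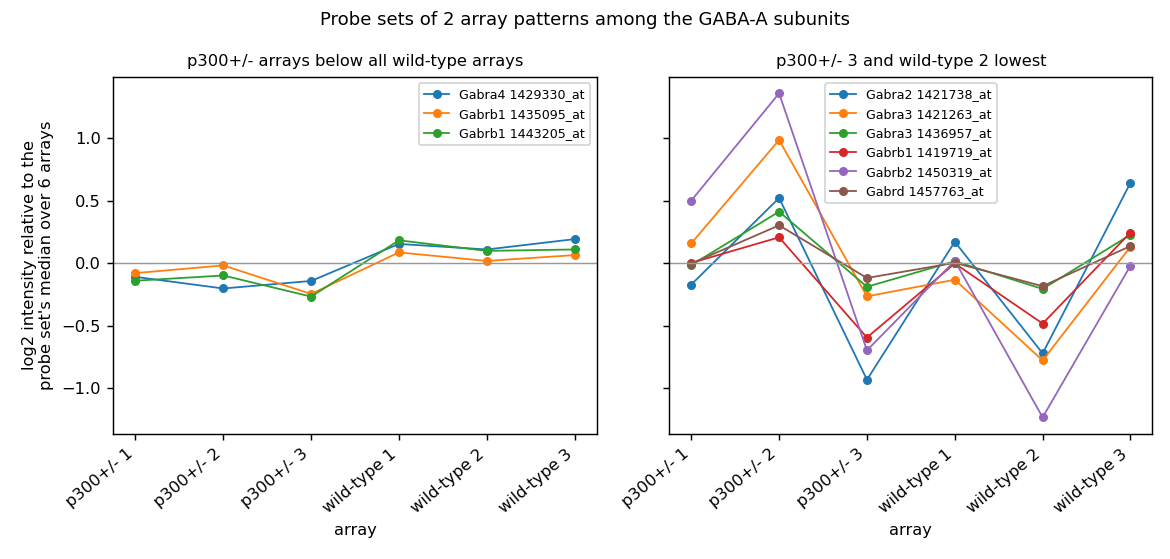
Lines join the log2 intensities of a probe set on the 6 arrays, relative to its median; lines serve to follow a probe set and the arrays have no order. On the left, the 3 probe sets with every p300+/- pool below every wild-type pool stay within -0.27 and 0.19; on the right, the 6 with p300+/- 3 and wild-type 2 lowest reach from -1.23 to 1.36.

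A second pattern ran across genotypes. In 6 of the 21 probe sets (28.6%), from 5 of the 7 genes, p300+/- 3 and wild-type 2 were the lowest arrays, against 15.8% of all probe sets. These were 1421738_at of Gabra2, both Gabra3 probe sets, 1419719_at of Gabrb1, 1450319_at of Gabrb2 and 1457763_at of Gabrd. Their median range over the 6 arrays was 1.21, against 0.40 for the other 15 subunit probe sets and 0.48 for all probe sets. Single ranges ran from 0.49 in 1457763_at to 2.59 in 1450319_at. The 6 were picked by the arrays with the most spread values, so a wider range follows in part from the selection. The range of all probe sets with this pattern was not computed. In 2 of the 21 p300+/- 3 and wild-type 2 were the highest arrays, against 21.3% of all. Of the 5 subunit probe sets annotated to a RefSeq mRNA record 4 had the low pattern, and of the 16 annotated to other records 2 did. Over the whole array the shares were 12.7% for RefSeq mRNA records and 16.7% for other records. Without p300+/- 3 and wild-type 2 the log2 fold changes of the 6 probe sets were -0.23, 0.57, 0.077, -0.017, 0.93 and 0.080, in the order named, against -0.23, 0.55, 0.057, -0.049, 0.80 and 0.075 with all arrays.

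Gabrb2 encodes beta 2, a widespread beta subunit of synaptic receptors. Its probe set 1450319_at had the widest spread of all 21. It was at 0.50, 1.36 and -0.70 in p300+/- pools and at 0.019, -1.23 and -0.019 in wild-type pools. The pools of a genotype spread over more than the genotypes differed, and the groups overlapped. Its log2 fold change of 0.80 ± 0.54 (SE) did not pass (limma, unadjusted p = 0.180, adjusted p = 0.9999). Without p300+/- 3 and wild-type 2 it was at 0.93 (limma, unadjusted p = 0.0172), and without p300+/- 2 it was at 0.31. The other 4 Gabrb2 probe sets were all slightly negative, at -0.024 to -0.14, and spanned no more than 0.32 over the 6 arrays. Of these, 1428203_at, 1428204_at and 1428205_x_at come from the same transcript record and are not independent readings. 1428204_at was at -0.14, -0.30 and 0.027 in p300+/- pools and at 0.017, 0.010 and -0.010 in wild-type pools. Its wild-type pools were close together, and p300+/- 2, the highest array for 1450319_at, was the lowest here. The mean over all 5 probe sets differed by 0.093 ± 0.12 (SE), or 0.11 without p300+/- 3 and wild-type 2. With the median over the probe sets in its place the difference was -0.022, and with the first probe set alone -0.024. The Gabrb2 probe sets disagreed in sign and spread by 0.94 between the lowest and the highest log2 fold change. 1450319_at was in the class from 4 to 8, whereas the rest were in the class from 8 to 16.

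Gabra3 encodes alpha 3, which is best known from the reticular thalamus and from monoaminergic neurons of the brainstem. Its probe set 1421263_at was at 0.16, 0.99 and -0.27 in p300+/- pools and at -0.13, -0.78 and 0.13 in wild-type pools. p300+/- 2 was far above the rest and wild-type 2 far below, and the groups overlapped. The log2 fold change was 0.55 ± 0.35 (SE) and did not pass (limma, unadjusted p = 0.155, adjusted p = 0.9999). It was 0.21 without p300+/- 2 and 0.57 without p300+/- 3 and wild-type 2. The other probe set, 1436957_at, kept the order of these arrays at a smaller size, from -0.21 in wild-type 2 to 0.41 in p300+/- 2. Its log2 fold change was 0.057 ± 0.19 (SE). The probe sets agreed in sign and differed by 0.49, and their mean differed between genotypes by 0.30 ± 0.34 (SE), or 0.32 without p300+/- 3 and wild-type 2. Thalamic markers averaged -0.045 to 0.12 in p300+/- and -0.10 to 0.0097 in wild-type pools (10 genes). Of their 28 probe sets 18 were positive and 10 negative, with 2 higher and 1 lower at an unadjusted p under 0.05 (limma). The list was set for the thalamus and not for its reticular part. The part of these markers in the values of Gabra3 was not tested.

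Gabra2 encodes alpha 2, found at synapses and at the axon initial segment of pyramidal cells. All 5 probe sets had negative log2 fold changes, from -0.28 to -0.0032, and in all 5 the groups overlapped. The largest belonged to 1455444_at, at -0.27, 0.27 and -0.29 in p300+/- pools and at -0.27, 0.41 and 0.38 in wild-type pools. Here p300+/- 1, p300+/- 3 and wild-type 1 were low and the other pools high. Without p300+/- 3 and wild-type 2 its value was -0.064. 1421738_at was at -0.17, 0.52 and -0.93 in p300+/- pools and at 0.17, -0.72 and 0.64 in wild-type pools, so that each genotype held high and low pools. Its log2 fold change of -0.23 ± 0.44 (SE) ran from -0.60 to 0.14 with single arrays left out. The probe sets 1420299_at and 1449807_x_at, from the same record and both in the lowest class, gave -0.0032 and -0.13, and 1443865_at gave -0.072. The mean over the 5 probe sets differed by -0.14 ± 0.22 (SE), and by -0.087 without p300+/- 3 and wild-type 2.

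Gabra5 encodes alpha 5, which is enriched in the hippocampus and lies mainly outside synapses on pyramidal cells. Its only probe set, 1433602_at, was at -0.20, -0.012 and 0.017 in p300+/- pools and at -0.036, 0.32 and 0.012 in wild-type pools. The groups overlapped, with p300+/- 1 low and wild-type 2 high. Its log2 fold change was -0.16 ± 0.14 (SE), with a 95% interval of -0.49 to 0.16. It was -0.054 without wild-type 2 and -0.095 without p300+/- 3 and wild-type 2.

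Gabrd encodes delta, the partner of alpha 4 in dentate granule cells. Its 2 probe sets had nearly equal log2 fold changes, 0.084 ± 0.18 and 0.075 ± 0.15 (SE), from unlike array values. 1449980_a_at was at 0.12, -0.35 and 0.27 in p300+/- pools and at -0.059, 0.059 and -0.22 in wild-type pools. 1457763_at was at -0.0029, 0.30 and -0.12 in p300+/- pools and at 0.0029, -0.18 and 0.14 in wild-type pools. p300+/- 2 was the lowest array of the first and the highest of the second. In the mean over both these deviations cancelled, and the pools lay at 0.056, -0.025 and 0.076 in p300+/- and -0.028, -0.062 and -0.041 in wild-type. That mean differed by 0.080 ± 0.033 (SE, exact permutation p = 0.1) without overlap, although the groups overlapped in each probe set. As for Gabra4, the share over all genes was not computed. Without p300+/- 3 and wild-type 2 the Gabrd mean differed by 0.050, and the value of 1449980_a_at was 0.021.

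**Figure D4:**
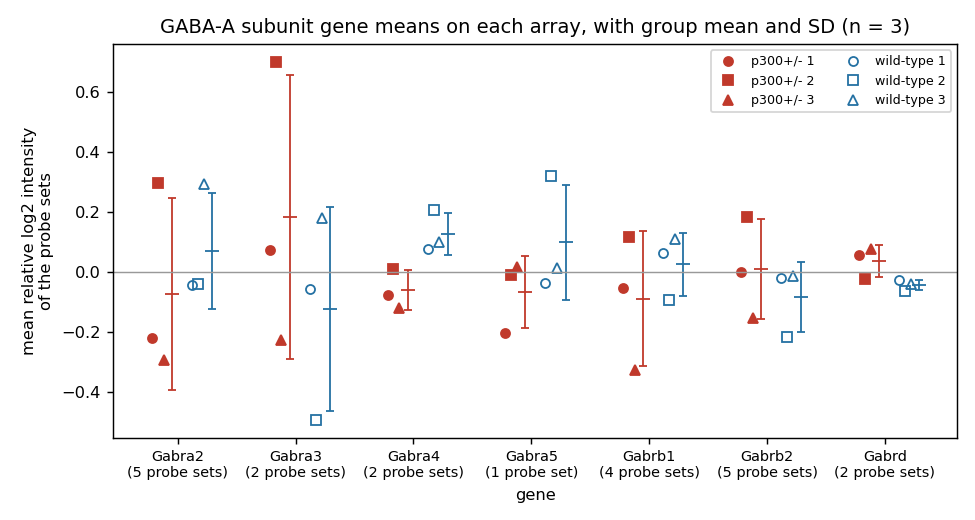
Symbols are the mean relative log2 intensity over the probe sets of each gene on each array (filled red p300+/-, open blue wild-type) and bars are the group mean with SD (n = 3 pools). The genotypes do not overlap for Gabra4, lower in p300+/- by 0.19, and for Gabrd, higher by 0.080, and they overlap for the other 5 genes. For each of these 2 genes the exact permutation p was 0.1, the smallest this design allows. The groups overlapped in each single probe set of Gabrd. The share of all genes whose means do not overlap was not computed.

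The direction was shared by all probe sets of a gene for Gabra2 (5 of 5 negative), Gabra3 (2 of 2 positive), Gabra4 (2 of 2 negative) and Gabrd (2 of 2 positive). In each of these genes at least 1 probe set changed sign with a single array left out. The Gabra2 probe sets 1420299_at, at -0.0032, and 1449807_x_at come from the same record and are not independent readings. Gabrb1 had 3 negative and 1 positive, and Gabrb2 had 4 negative and 1 positive. Averaged over all 7 genes with equal weight, the pools were at -0.061, 0.18 and -0.15 in p300+/- and at -0.0071, -0.054 and 0.091 in wild-type. Their difference was -0.019 ± 0.11 (SE; exact permutation p = 0.8).

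Alpha 4 and delta are named above with dentate granule cells, whose markers were at 0.058, 0.030 and -0.27 in p300+/- and at 0.053, 0.0053 and 0.098 in wild-type pools (mean over 10 genes). The groups overlapped, and p300+/- 3 was lowest. GABAergic interneuron markers (15 genes) were at -0.0036, 0.098 and 0.13 in p300+/- and at -0.031, -0.018 and -0.0050 in wild-type pools, a difference of 0.092. The groups nearly met, at -0.0036 in p300+/- 1 and -0.0050 in wild-type 3. Of the 25 probe sets of these markers 17 were positive and 8 negative, with 0 at an unadjusted p under 0.05 (limma). How often means of other gene sets separate was not computed. The part of either marker list in the subunit values was not tested.

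Other genes of GABA signalling were read from 5 fixed lists, and 0 of their probe sets were called in either direction. Of the other GABA-A subunits 8 of 12 listed genes were measured, by 14 probe sets. Of these 3 had positive and 11 negative log2 fold changes, with a median of -0.033 and 0 at an unadjusted p under 0.05. In each of the 5 lists the named genes are those with the smallest p by the first probe set of a gene. Here they were Gabrq, the theta subunit, at 0.13 ± 0.14 (SE), and Gabrg3, the gamma 3 subunit, at -0.069 ± 0.11, while the 3 other Gabrg3 probe sets ran from -0.21 to 0.19. Chosen after its value was seen, the probe set with the smallest p of all 14 was 1451424_at of Gabrp, the pi subunit, at -0.15 ± 0.11. Genes of receptor assembly, clustering and trafficking (19 genes, 43 probe sets) had 25 positive and 18 negative values and a median of 0.026. Gabarapl2, a relative of the GABA-A receptor-associated protein, was at 0.24 ± 0.19 and Plcl1, which binds beta subunits, at 0.38 ± 0.34. Their other probe sets had the opposite sign, at -0.077 and -0.056.

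GABA-B receptors, the metabotropic receptors for GABA, and their auxiliary subunits (3 of 5 genes, 7 probe sets) had 5 positive and 2 negative values and a median of 0.039. Kctd16, an auxiliary subunit, was at 0.29 ± 0.14 (SE). Gabbr1 was at 0.45 ± 0.36 by its first probe set, which was lowest in p300+/- 3 (-0.50) and lower still in wild-type 2, while its other 3 probe sets lay between -0.16 and 0.039. Genes of GABA synthesis, transport and breakdown (8 of 9 genes, 15 probe sets) had 11 positive and 4 negative values and a median of 0.082. Gad2, a GABA-synthesizing enzyme, was at 0.37 ± 0.44, with -0.83 in p300+/- 3 and -0.93 in wild-type 2, and its other probe set was at -0.0043. Slc6a13, a GABA transporter, was at 0.24 ± 0.22. Chloride transport genes (10 of 11 genes, 24 probe sets) had 8 positive and 16 negative values, a median of -0.036 and 1 value at an unadjusted p under 0.05, a higher one. In that list Slc12a7, a potassium-chloride cotransporter, was at 0.20 ± 0.16 and Wnk2, a kinase that regulates such transporters, at 0.14 ± 0.12. Their other probe sets were negative, at -0.015 for Slc12a7 and at -0.085 and -0.0066 for Wnk2. The array values of Gabbr1, Gad2 and Plcl1 had the same lowest arrays as the 6 subunit probe sets described above.

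Over the 6 arrays the mean profile of the 7 genes was most like that of Srsf12, a splicing factor gene, with a Pearson coefficient of 0.99 among 18186 other genes. Ttbk2, Cat, Nus1 and Hspa4l followed at 0.99. All 5 were highest in p300+/- 2 and lowest in p300+/- 3. With 6 arrays and this many genes such values are a description only.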

How the data were processed

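Per the labels' protocols, RNA from 4 animals was pooled per array and the authors processed and normalized the array data in GeneSpring GX. The version, probe summarization and normalization between arrays were not stated in the labels used here. The deposited log2 values were centred by probe set (largest absolute median over the arrays 5e-07). Their log base is not stated and was taken as 2, which a fold change depends on. Control probe sets (64) were left out. Genes were named by the platform annotation, with symbols updated through RefSeq (GRCm38.p6). All 45037 probe sets were fitted with limma 3.58.1 in R 4.3.3 (lmFit, eBayes, two-sided, no covariates), with Benjamini-Hochberg adjustment over all of them and a threshold of 0.05, and the fit was tested on simulated data. The number of arrays limits the precision. Gene means are means over the probe sets of a gene on an array, and the standard error of their difference comes from the SD of 3 and 3 pools.

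The members and lists were chosen with earlier results of these data known. All member probe sets are reported. From each pathway list at most the 2 genes whose first probe set had the smallest p are named, and by likeness the 5 genes with the highest Pearson coefficient to the mean profile of the members. Alternatives were quantile normalization, median centring, robust moderation, weights per array, a block for the replicate number, omission of arrays, of probe sets ending in _s_at or _x_at and of the lowest class, a threshold of 0.1 and other gene summaries. Figures were drawn with matplotlib 3.10.9.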

Additional observations from a re-analysis of the deposited data

How the results depend on the processing

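Under each alternative run, 0 of all probe sets, 0 subunit probe sets and 0 probe sets of the 5 pathway lists were called, also at a threshold of 0.1. The signs of 9 of the 21 subunit probe sets held under every alternative, among them Gabra4 1429330_at and Gabrb1 1443205_at and 1435095_at. The other 12 changed sign in at least 1, in 9 of them with a single array left out and under no other alternative. With array weights 12 of the 21 were negative, with a median of -0.0087 (0.017 over all probe sets), and Gabra2 1443865_at was at 0.065, Gabra4 1433707_at at 0.023 and Gabrb2 1428203_at at 0.029. Without both p300+/- 3 and wild-type 2 the first was at 0.11 and the second at 0.091. With single arrays left out the values ran as follows. For Gabra2, 1420299_at ran from -0.086 to 0.084, 1421738_at from -0.60 to 0.14, 1443865_at from -0.17 to 0.025 and 1449807_x_at from -0.33 to 0.072. For Gabra3, 1436957_at ran from -0.11 to 0.19, and for Gabra4, 1433707_at from -0.17 to 0.029. For Gabrb1, 1419719_at ran from -0.25 to 0.18 and 1443834_at from -0.097 to 0.19. For Gabrb2, 1428203_at ran from -0.094 to 0.059 and 1428205_x_at from -0.14 to 0.0015. For Gabrd, 1449980_a_at ran from -0.045 to 0.27 and 1457763_at from -0.046 to 0.16. The cause was not tested.

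The count of subunit probe sets at an unadjusted p under 0.05 (2) ran from 0 without wild-type 3 to 3 without p300+/- 3. It was 1 without p300+/- 1, without p300+/- 2 and without wild-type 1, with a different probe set each time. The probe sets and the shares over all probe sets are given above. The sample titles give replicate numbers and state no pairing of arrays. The deviations from the group means of same-numbered arrays correlated at 0.61, -0.23 and -0.47 over all probe sets. These correlations cannot decide whether the numbers pair the arrays, because deviations within a group of 3 sum to 0 and depend on each other. With the replicate number as a block 0 subunit probe sets were called, 1 (Gabra4 1429330_at) was at an unadjusted p under 0.05, and its log2 fold change stayed at -0.30. The mean difference of Gabra4 moved to -0.12 without both p300+/- 3 and wild-type 2 and to -0.30 with its first probe set alone. Moderation with a trend on the level was not run, because the values hold no level. The low-intensity limit cannot be read from centred values beyond the coarse class.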
